A study of Homo sapiens with 12 samples.

Results

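Interferon-stimulated genes are the genes that cells switch on when type I, II or III interferon reaches its receptor. For types I and III, the receptor-bound kinases JAK1 and TYK2 phosphorylate STAT2, which joins IRF9 in the factor ISGF3. ISGF3 binds the interferon-stimulated response element (ISRE) in promoters. Many of the products block a step of viral replication, others sense viral RNA or feed back on the signal, and a number of tumours carry the same genes at raised levels without infection. Here 45 such genes were followed in PC-3 cells, an established androgen-independent prostate cancer cell line. The members were chosen by name, as genes known to respond to interferon, and with earlier results of these data known. Of the 45, 43 had at least 1 of 53 array probes whose RefSeq transcript matched. All 43 genes passed the filter on dim signal, out of 25748 genes tested. No probe was matched to IFI27 or SAMD9L, which were not analysed here.

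The study asked how the kinase PIM1 and the transcription factor NFATC1, which PIM1 phosphorylates, act together on gene expression. RNA of 12 samples in 6 groups of 2 was read on 6 two-colour Agilent arrays. All cells were pools selected with G418 after transfection with a pcDNA3.1-based plasmid, either the empty vector (control, WT and MM groups) or the vector for PIM1 (PIM1, PIM1+WT and PIM1+MM groups), together with a td-Tomato plasmid. WT and PIM1+WT cells were in addition transiently transfected with wild-type NFATC1, and MM and PIM1+MM cells with a multi-mutant NFATC1 in which serines and threonines that PIM1 targets were changed to alanine. The labels name no transient mock transfection for the control and PIM1 groups, and 1 pool of each stable line is described, so that PIM1 and a difference between the pools cannot be told apart. The labels do not say whether the 2 samples of a group came from separate cultures, so that p-values measure only the spread between these samples, which may be technical. Control, WT and PIM1+WT samples carried the dye Cy3 and the other groups Cy5, with no dye swap. Each sample of a group lay on another of the 2 slides.

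The comparisons of interest set cells with stable PIM1 against cells without it, as PIM1 minus control, PIM1+WT minus WT and PIM1+MM minus MM. They share no sample. The first sets Cy5 against Cy3, while the second lies within Cy3 and the last within Cy5. In the first, stable PIM1 and a dye difference of a gene cannot be told apart. Values are log2 intensities after quantile normalization, given for the 2 samples of a group in replicate order, and a log2 difference of 1 is a 2-fold change. They compare samples for the same gene, not genes with each other, because probes differ in brightness. A gene passed when its adjusted p in limma was below 0.05, and the word called is kept for genes that also differed by at least 1 on the log2 scale.

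PIM1 mRNA, read by 1 probe, did not differ in the direction of the labels beyond the spread between samples. The differences were 0.25, -0.23 and 0.15 in the 3 comparisons (adjusted p = 0.107, 0.137 and 0.339). Whether that probe lies within the transfected sequence was not determined, so the phrase "with stable PIM1" stands for the label of a sample throughout. The study itself reports overexpression of PIM1 and/or NFATC1 in its cell samples by real-time qPCR. NFATC1 mRNA, the median of 2 probes that disagreed, did not pass in WT against control cells (0.44, adjusted p = 0.0687) and rose from PIM1 to PIM1+MM cells (2.73, adjusted p = 9.32e-07). WT cells had less of it than MM cells (a difference of -1.82, adjusted p = 3.65e-05), and PIM1+WT less than PIM1+MM cells (-2.07, adjusted p = 9.58e-06). One probe carried this, with mean log2 intensities of 6.87 for control, 7.77 for WT, 11.29 for MM, 6.38 for PIM1, 7.97 for PIM1+WT and 11.95 for PIM1+MM cells, while the other lay between 8.28 and 8.39 without and between 7.19 and 7.44 with stable PIM1. The groups of the NFATC1 forms thus differed in NFATC1 signal as well as in form, and the place of these probes on the transfected sequence was not determined. Of the 5 epithelial markers, KRT8, KRT18, KRT19 and EPCAM were well above background on all 12 channels and CDH1 on 5. Among 8 markers of blood, fibroblasts and endothelium, PECAM1 and PDGFRA were higher with stable PIM1 in all 3 comparisons, COL1A1 was lower in the last 2 (-0.39 in both), PTPRC, CD3E and CDH5 passed in none, and the summed log2 level of the list was between 55.88 and 56.46 without stable PIM1 and between 56.98 and 58.49 with it. The epithelial markers did not move as 1 block. EPCAM and CDH1 were lower in all 3, KRT8 was higher in the last 2 (0.40 and 0.25), KRT19 was higher in the last (0.36), and KRT18 passed in none. PECAM1, PDGFRA, EPCAM and CDH1 thus differed in the same comparisons as the interferon-stimulated genes, and their part in the result was not tested. The array that held replicate 1 of control and PIM1 had the highest share of spots flagged as outliers (1.94% and 1.31% against at most 0.851% elsewhere), and the first 33 of 532 spot rows were dim in the Cy5 channel of PIM1+MM replicate 2 (median deviation -0.19 on the log2 scale, against 0.01 in the other rows).

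Most members were higher in cells with stable PIM1 whatever the NFATC1 state. Of the 43 members tested, 26 passed with a higher level in PIM1 than in control cells, against 12.6% of all genes tested. The count was 32 in PIM1+WT against WT cells, with 13.3% of all genes, and 29 in PIM1+MM against MM cells, with 10% of all genes. STAT2 alone passed with a lower level, as 12.4% of all genes did, in PIM1 against control cells, which also differ in dye. The median difference of the members was 0.50, 0.63 and 0.74 in these comparisons, and the median of all genes was 0.01, -0.00 and 0.00. With higher level and a difference of at least 1, 11, 14 and 14 members were called (0.509%, 0.819% and 0.497% of all genes). The members were chosen with earlier results of these data known, so these counts describe the list and are no independent support. In bulk RNA, more cells with the transcript and more transcript per cell cannot be told apart.

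A set of 25 members passed with a higher level in all 3 comparisons, against 4.42% of all genes, and these carry the rise. Their differences ran from 0.26 to 1.83, and 7 of them were at least 1 in every comparison. A further 4 members (ISG15, RSAD2, OAS3 and IFI35) passed in 2 comparisons, 4 (IFIT1, DTX3L, TRIM22 and PARP14) in 1 and 10 in none. In 27 of the 42 members with a value in every sample, each of the 6 samples with stable PIM1 was above each of the 6 without it, against 6.85% of all genes. On either slide taken alone, the median of the members not near background lay between 0.55 and 0.76 in the 3 comparisons. Normalization mattered for these counts. When channels were centred on their medians in place of quantile normalization, 3 of the 25 passed in all 3 comparisons, and 7, 6 and 5 members passed with a higher level, with 3 lower in PIM1 against control cells. Under that setting the median of all genes itself moved to 0.13, 0.14 and 0.05, and the median of the members was 0.29, 0.54 and 0.59. Under the other settings that kept every sample, between 21 and 25 of the carriers that could be tested passed in all 3.

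**Figure D1:**
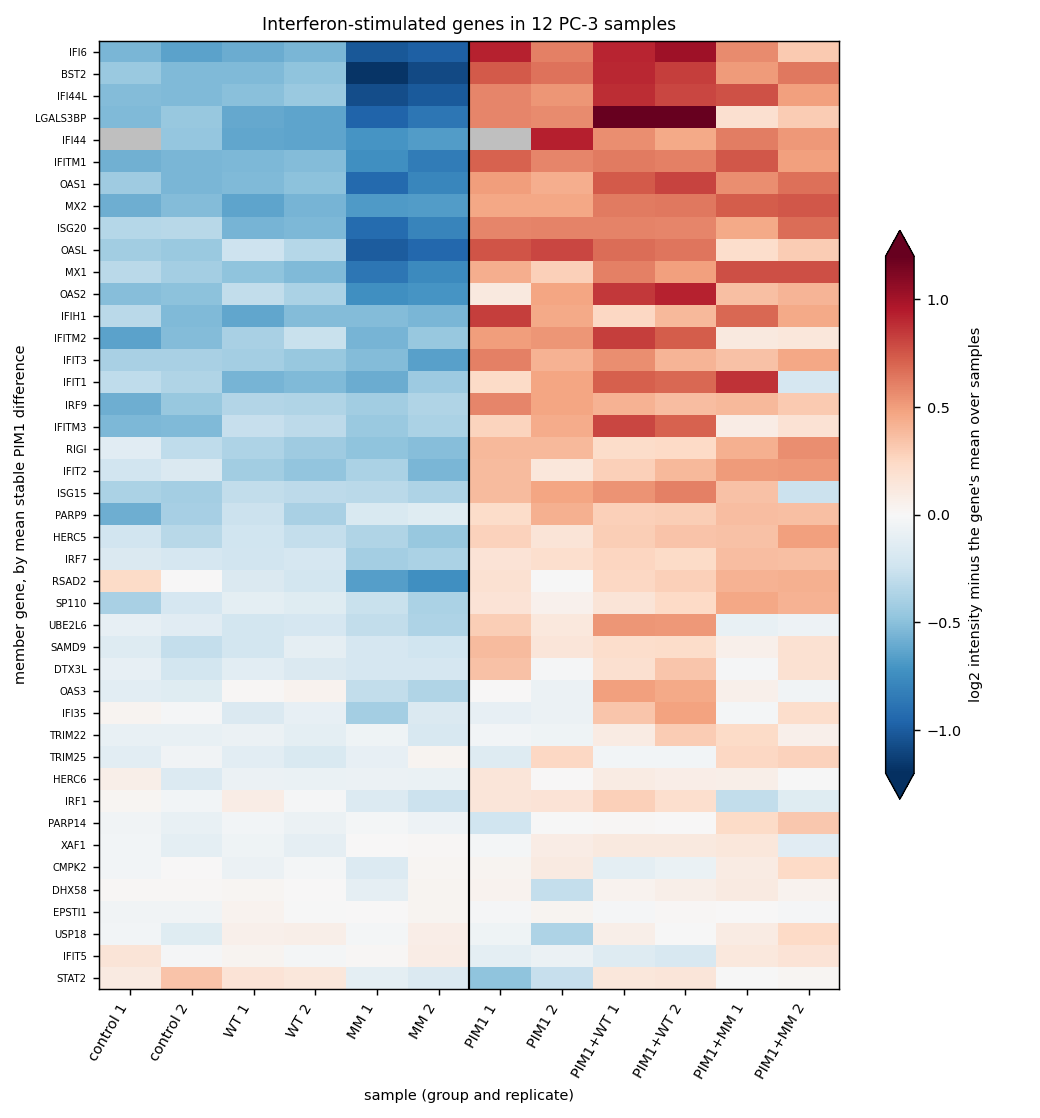
Each row is a member, ordered by its mean stable PIM1 difference, and each column a sample, with colour giving the log2 intensity minus the gene's mean over the samples (the scale ends at 1.2 on either side, grey marks spots left out as outliers). The 6 samples right of the line carry stable PIM1 by label, and the rows from IFI6 down to SAMD9 are higher there for most genes, with RSAD2 high in control cells as well.

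**Figure D2:**
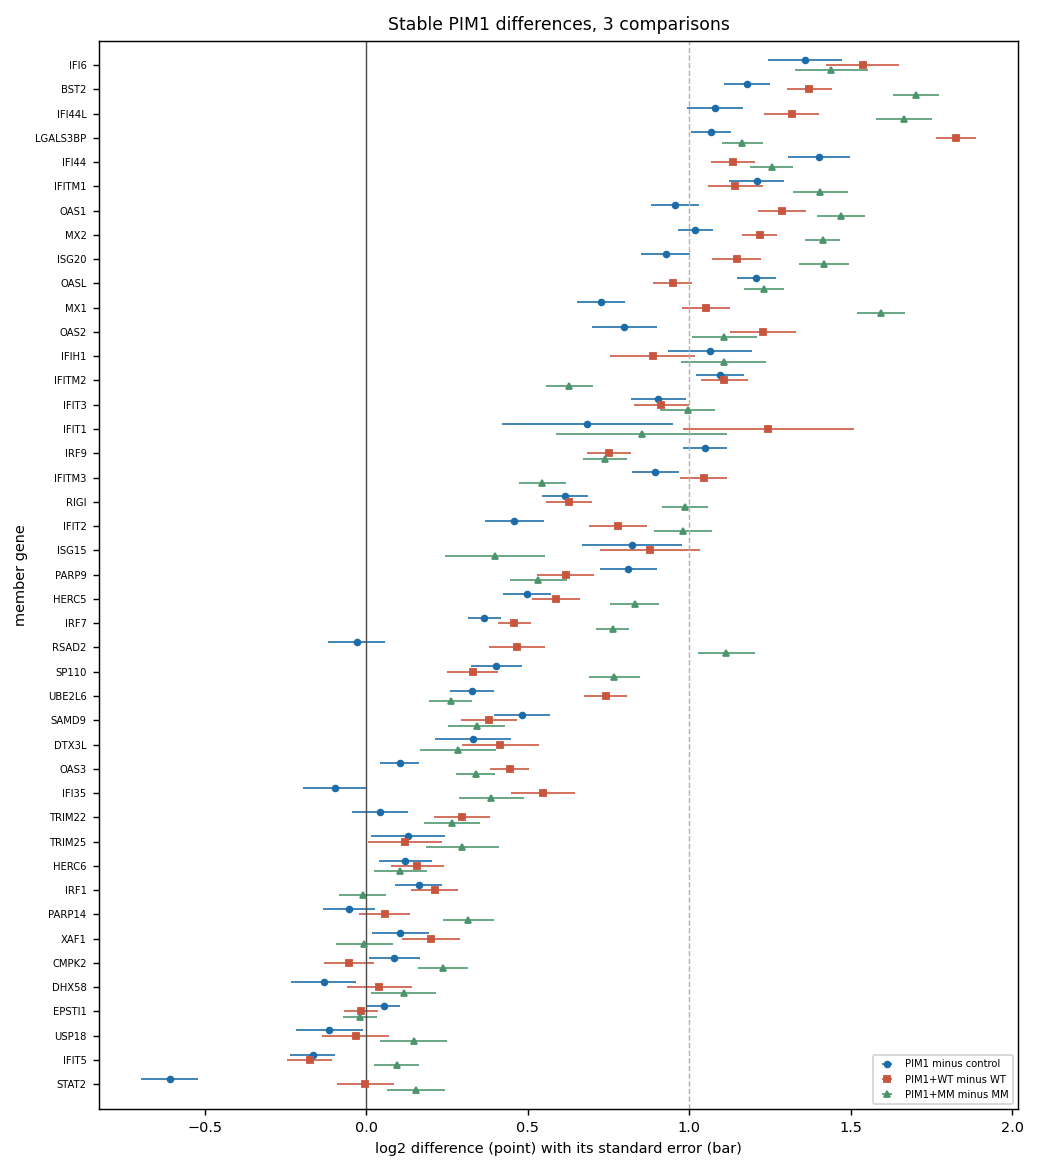
Log2 differences of each member in PIM1 minus control, PIM1+WT minus WT and PIM1+MM minus MM (points) with their standard errors (bars), and a dashed line at 1. The points of IFI6, BST2, IFI44L, LGALS3BP, IFI44, IFITM1 and MX2 lie above 1 in every comparison, and those of USP18, IFIT5 and EPSTI1 lie between -0.18 and 0.15.

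The promoters of the members that carry the rise are shown first, because the ISRE is the element that ISGF3 binds in promoters. RefSeq promoters (GRCh38.p14, from 250 bases before to 50 bases after the transcription start) were held for 36 of the 45 members. The ISRE core was searched on both strands as GAAA, any 2 bases and GAAA again, and matches may overlap, as they do in BST2. Of the 36 members, 23 (63.9%) held at least 1 match in a promoter, against 4.38% of all 27305 genes with a promoter in the table. Among the members higher in all 3 comparisons, 14 of 19 held a match. Among the members measured above background but not higher in all 3, 7 of 13 (53.8%) did, and within these 1 of the 6 that were higher in none, which is IFIT5. A match is a description of the letters only. The 250 bases before the start are printed below for the 6 carriers with the highest mean difference that hold a match, 5′ to 3′ on the strand of the gene, with the matches in capitals. IFI6 is at chr1:27672193-27672442 (minus strand), BST2 at chr19:17405631-17405880 (minus), IFI44L at chr1:78620198-78620447 (plus), LGALS3BP at chr17:78979924-78980173 (minus), IFI44 at chr1:78649539-78649788 (plus) and IFITM1 at chr11:313790-314039 (plus).
IFI6: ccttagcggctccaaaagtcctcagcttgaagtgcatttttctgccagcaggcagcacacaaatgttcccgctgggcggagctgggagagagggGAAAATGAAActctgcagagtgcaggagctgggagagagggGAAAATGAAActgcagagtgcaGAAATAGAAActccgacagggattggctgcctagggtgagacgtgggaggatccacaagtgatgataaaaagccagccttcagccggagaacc
BST2: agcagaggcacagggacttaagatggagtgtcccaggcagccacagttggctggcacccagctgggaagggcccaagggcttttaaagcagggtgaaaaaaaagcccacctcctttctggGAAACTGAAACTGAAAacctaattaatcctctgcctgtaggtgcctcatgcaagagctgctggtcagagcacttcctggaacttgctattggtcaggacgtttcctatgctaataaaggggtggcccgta
IFI44L: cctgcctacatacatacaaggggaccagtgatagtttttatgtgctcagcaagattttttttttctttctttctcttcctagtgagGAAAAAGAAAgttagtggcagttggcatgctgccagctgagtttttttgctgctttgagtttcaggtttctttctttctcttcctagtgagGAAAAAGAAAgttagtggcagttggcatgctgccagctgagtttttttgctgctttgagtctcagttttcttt
LGALS3BP: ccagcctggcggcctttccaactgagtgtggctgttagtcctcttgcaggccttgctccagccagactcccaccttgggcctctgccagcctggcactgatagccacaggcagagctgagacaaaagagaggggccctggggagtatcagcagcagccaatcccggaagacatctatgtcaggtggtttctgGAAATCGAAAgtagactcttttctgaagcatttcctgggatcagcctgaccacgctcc
IFI44: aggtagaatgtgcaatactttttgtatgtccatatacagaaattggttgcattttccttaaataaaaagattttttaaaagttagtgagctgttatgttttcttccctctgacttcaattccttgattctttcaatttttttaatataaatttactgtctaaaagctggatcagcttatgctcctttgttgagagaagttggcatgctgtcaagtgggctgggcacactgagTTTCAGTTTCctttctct
IFITM1: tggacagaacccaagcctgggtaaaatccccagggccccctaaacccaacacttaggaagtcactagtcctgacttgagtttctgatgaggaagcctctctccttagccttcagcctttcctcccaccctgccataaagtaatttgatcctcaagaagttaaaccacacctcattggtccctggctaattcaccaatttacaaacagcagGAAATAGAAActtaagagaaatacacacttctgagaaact

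The matches began 93 to 156 bases before the start in IFI6, which holds 3, at 124 and 130 bases in BST2, at 73 and 164 bases in IFI44L, at 58 bases in LGALS3BP, at 18 bases in IFI44 and at 40 bases in IFITM1. For contrast, the same window is shown for IFIT5, which holds 2 matches and did not pass in any of the 3 comparisons (chr10:89414318-89414567, plus strand), and for IRF1, which did not pass either and holds no ISRE match. In IRF1 (chr5:132490774-132491023, minus strand) the capitals mark a match to TTCNNNGAA (its own reverse complement), the gamma-activated sequence (GAS) of interferon gamma responses, which 9.38% of all genes and 11 of the 36 members hold.
IFIT5: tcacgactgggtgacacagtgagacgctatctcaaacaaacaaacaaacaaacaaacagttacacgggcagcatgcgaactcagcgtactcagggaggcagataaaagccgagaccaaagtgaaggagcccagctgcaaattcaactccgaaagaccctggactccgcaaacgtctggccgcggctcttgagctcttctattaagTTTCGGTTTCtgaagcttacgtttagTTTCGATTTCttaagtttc
IRF1: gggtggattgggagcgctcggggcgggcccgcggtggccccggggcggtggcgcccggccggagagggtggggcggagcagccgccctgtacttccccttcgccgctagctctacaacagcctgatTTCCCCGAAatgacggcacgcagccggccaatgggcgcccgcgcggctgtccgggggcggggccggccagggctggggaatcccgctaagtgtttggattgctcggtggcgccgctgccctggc

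Below, 3 differences given together follow the order PIM1 minus control, PIM1+WT minus WT and PIM1+MM minus MM, and the standard error of each difference is the same in the 3 comparisons unless stated. The numbers after "read" are log2 intensities of single samples. The members with the highest mean difference come first. IFI6, a small membrane protein that protects cells from apoptosis, read 10.11 and 10.01 for control, 11.58 and 11.26 for PIM1, 10.06 and 10.11 for WT, 11.57 and 11.68 for PIM1+WT, 9.64 and 9.68 for MM and 11.23 and 10.97 for PIM1+MM cells. It differed by 1.36, 1.54 and 1.44 (standard error 0.114, adjusted p = 5.16e-05, 2.23e-05 and 5.93e-05). Every sample with stable PIM1 was over 1 log2 unit above the samples it was compared with, and MM cells were the lowest group. BST2, or tetherin, which holds budding enveloped viruses at the cell surface, read 9.34 and 9.26 for control, 10.52 and 10.43 for PIM1, 9.25 and 9.30 for WT, 10.69 and 10.61 for PIM1+WT, 8.61 and 8.70 for MM and 10.30 and 10.42 for PIM1+MM cells. It differed by 1.18, 1.37 and 1.70 (standard error 0.07, adjusted p = 8.69e-06, 3.84e-06 and 1.62e-06), and its pair of probes gave 1.48 and 1.35 as the mean difference. In BST2 too, the lowest group was MM.

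IFI44L and its neighbour IFI44 encode antiviral proteins of little known mechanism. IFI44L read 8.10 and 8.10 for control, 9.20 and 9.15 for PIM1, 8.12 and 8.18 for WT, 9.51 and 9.42 for PIM1+WT, 7.56 and 7.62 for MM and 9.39 and 9.12 for PIM1+MM cells. It differed by 1.08, 1.32 and 1.67 (standard error 0.0862, adjusted p = 3.98e-05, 1.3e-05 and 5.28e-06). IFI44 read 11.43 (1 sample) for control, 12.83 (1 sample) for PIM1, 11.27 and 11.26 for WT, 12.45 and 12.35 for PIM1+WT, 11.19 and 11.23 for MM and 12.51 and 12.42 for PIM1+MM cells, as the spots of the other control and PIM1 sample were flagged as outliers. It differed by 1.40, 1.13 and 1.26 (standard error 0.0674, adjusted p = 7.7e-05, 3.74e-05 and 4.24e-05), with a larger standard error of 0.0953 in the first comparison, which rests on 1 sample a group. The groups with and without stable PIM1 did not overlap in either gene. LGALS3BP, a secreted glycoprotein that binds galectins and is often raised in tumours, read 10.07 and 10.13 for control, 11.18 and 11.16 for PIM1, 9.98 and 9.96 for WT, 11.81 and 11.78 for PIM1+WT, 9.63 and 9.72 for MM and 10.78 and 10.90 for PIM1+MM cells. It differed by 1.07, 1.83 and 1.16 (standard error 0.0628, adjusted p = 8.18e-06, 9.03e-07 and 7.09e-06). PIM1+WT cells held the most LGALS3BP, above PIM1 and PIM1+MM cells. SP110, a nuclear body protein, had smaller differences. SP110 read 8.66 and 8.85 for control, 9.21 and 9.10 for PIM1, 8.93 and 8.91 for WT, 9.20 and 9.29 for PIM1+WT, 8.78 and 8.67 for MM and 9.51 and 9.47 for PIM1+MM cells. It differed by 0.40, 0.33 and 0.77 (standard error 0.0788, adjusted p = 0.00484, 0.0127 and 0.000235). Its difference was -0.01 in PIM1 against control cells after median centring.

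The antiviral effectors formed the largest block, with 13 of 19 tested members higher in all 3 comparisons and a median mean difference of 0.94. The OAS enzymes make oligoadenylates that activate RNase L when they meet double-stranded RNA. OAS1 read 8.21 and 8.10 for control, 9.14 and 9.08 for PIM1, 8.11 and 8.15 for WT, 9.38 and 9.46 for PIM1+WT, 7.71 and 7.86 for MM and 9.20 and 9.31 for PIM1+MM cells. It differed by 0.96, 1.29 and 1.47 (standard error 0.0745, adjusted p = 3.44e-05, 7.11e-06 and 4.91e-06). OAS2 read 8.19 and 8.21 for control, 8.82 and 9.17 for PIM1, 8.40 and 8.32 for WT, 9.55 and 9.63 for PIM1+WT, 7.97 and 7.99 for MM and 9.06 and 9.11 for PIM1+MM cells. It differed by 0.80, 1.23 and 1.11 (standard error 0.101, adjusted p = 0.000465, 4.05e-05 and 0.000133). The 3 probes of OAS2 disagreed in size, with mean differences of 1.16, 0.96 and 0.45, and the brightest of them gave 0.11 in PIM1 against control cells (adjusted p = 0.319). OASL, a relative without that enzyme activity that strengthens RIG-I signalling, read 13.86 and 13.84 for control, 15.03 and 15.08 for PIM1, 14.03 and 13.94 for WT, 14.95 and 14.92 for PIM1+WT, 13.28 and 13.34 for MM and 14.49 and 14.58 for PIM1+MM cells. It differed by 1.21, 0.95 and 1.23 (standard error 0.0607, adjusted p = 3.26e-06, 1.14e-05 and 4.42e-06). OAS3 had smaller differences of 0.10, 0.44 and 0.34, and it passed in the last 2 comparisons only. Its probes differed as well (mean differences 0.45 and 0.14), the second being well above background on 9 of 12 channels.

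MX1 and MX2 are dynamin-like GTPases that trap viral nucleocapsids. MX1 read 10.21 and 10.13 for control, 10.97 and 10.82 for PIM1, 10.05 and 10.01 for WT, 11.14 and 11.02 for PIM1+WT, 9.66 and 9.77 for MM and 11.31 and 11.31 for PIM1+MM cells. It differed by 0.73, 1.05 and 1.59 (standard error 0.0741, adjusted p = 0.000138, 1.81e-05 and 3.13e-06). MX2 read 6.73 and 6.79 for control, 7.78 and 7.77 for PIM1, 6.68 and 6.75 for WT, 7.93 and 7.94 for PIM1+WT, 6.63 and 6.64 for MM and 8.04 and 8.06 for PIM1+MM cells. It differed by 1.02, 1.22 and 1.41 (standard error 0.0541, adjusted p = 4.63e-06, 2.18e-06 and 1.1e-06). Both genes separated the samples by stable PIM1 without overlap. ISG20, an exonuclease that degrades RNA, read 14.77 and 14.78 for control, 15.70 and 15.71 for PIM1, 14.55 and 14.57 for WT, 15.71 and 15.70 for PIM1+WT, 14.19 and 14.31 for MM and 15.56 and 15.78 for PIM1+MM cells. It differed by 0.93, 1.15 and 1.42 (standard error 0.0764, adjusted p = 4.78e-05, 1.39e-05 and 7.09e-06). SAMD9, a cytoplasmic restriction factor of poxviruses, read 6.64 and 6.50 for control, 7.17 and 6.94 for PIM1, 6.57 and 6.68 for WT, 7.00 and 7.01 for PIM1+WT, 6.59 and 6.55 for MM and 6.85 and 6.97 for PIM1+MM cells. It differed by 0.48, 0.38 and 0.34 (standard error 0.0877, adjusted p = 0.00324, 0.0106 and 0.0245), and it did not always pass when 1 sample was left out, as given further on. The spot of SAMD9 lay in the first rows, which were dim in PIM1+MM replicate 2. With those rows left out of that sample, its last difference fell to 0.28 and rests on PIM1+MM replicate 1 alone.

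The IFITM proteins sit in membranes and hinder the fusion of viruses with the cell. They are close paralogs, and cross-hybridization between their probes was not tested. IFITM1 read 11.15 and 11.17 for control, 12.43 and 12.30 for PIM1, 11.18 and 11.20 for WT, 12.34 and 12.32 for PIM1+WT, 10.99 and 10.88 for MM and 12.47 and 12.21 for PIM1+MM cells. It differed by 1.21, 1.14 and 1.41 (standard error 0.0863, adjusted p = 2.29e-05, 2.48e-05 and 1.46e-05). IFITM2 read 13.73 and 13.86 for control, 14.88 and 14.90 for PIM1, 13.99 and 14.11 for WT, 15.20 and 15.10 for PIM1+WT, 13.81 and 13.92 for MM and 14.49 and 14.51 for PIM1+MM cells. It differed by 1.10, 1.11 and 0.63 (standard error 0.073, adjusted p = 1.55e-05, 1.34e-05 and 0.000461). IFITM3 read 14.26 and 14.27 for control, 15.07 and 15.25 for PIM1, 14.53 and 14.49 for WT, 15.60 and 15.50 for PIM1+WT, 14.35 and 14.42 for MM and 14.89 and 14.97 for PIM1+MM cells. It differed by 0.89, 1.04 and 0.54 (standard error 0.0729, adjusted p = 4.49e-05, 1.74e-05 and 0.001). The difference was larger under wild-type than under multi-mutant NFATC1 in IFITM3 (interaction 0.50, adjusted p = 0.0451), and this did not pass in IFITM2 (0.48, adjusted p = 0.0518) or IFITM1 (-0.26, adjusted p = 0.341).

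Among the IFIT proteins, IFIT1 binds viral RNA that lacks proper cap methylation. IFIT3 read 9.76 and 9.76 for control, 10.76 and 10.57 for PIM1, 9.75 and 9.69 for WT, 10.71 and 10.56 for PIM1+WT, 9.63 and 9.50 for MM and 10.50 and 10.61 for PIM1+MM cells. It differed by 0.90, 0.91 and 1.00 (standard error 0.0856, adjusted p = 9.57e-05, 8.09e-05 and 9.55e-05). IFIT2 read 10.60 and 10.65 for control, 11.21 and 10.96 for PIM1, 10.41 and 10.35 for WT, 11.11 and 11.21 for PIM1+WT, 10.44 and 10.28 for MM and 11.34 and 11.34 for PIM1+MM cells. It differed by 0.46, 0.78 and 0.98 (standard error 0.0911, adjusted p = 0.0052, 0.000263 and 0.000141), though median centring turned the first difference to -0.12. IFIT1 read 11.95 and 11.89 for control, 12.48 and 12.72 for PIM1, 11.70 and 11.72 for WT, 12.97 and 12.94 for PIM1+WT, 11.66 and 11.81 for MM and 13.12 and 12.05 for PIM1+MM cells. All 6 samples with stable PIM1 were above the 6 without it, but PIM1+MM replicate 2 was far below replicate 1. It differed by 0.68, 1.24 and 0.85 (standard error 0.265, adjusted p = 0.0963, 0.00699 and 0.0522). The spot of IFIT1 lay in the dim first rows of that channel. With those rows left out of PIM1+MM replicate 2, the last difference of IFIT1 was 1.39 and rests on PIM1+MM replicate 1 alone. IFIT5 behaved unlike the rest of its family, with differences of -0.17, -0.18 and 0.09, and did not pass.

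RSAD2 (viperin), which makes a chain-terminating nucleotide, read 9.12 and 8.89 for control, 9.07 and 8.88 for PIM1, 8.71 and 8.67 for WT, 9.14 and 9.18 for PIM1+WT, 8.23 and 8.16 for MM and 9.31 and 9.31 for PIM1+MM cells. It differed by -0.03, 0.47 and 1.11 (standard error 0.0878, adjusted p = 0.87, 0.00373 and 5.81e-05). Control cells thus gave as much RSAD2 signal as PIM1 cells, which carried the other dye, and the MM group gave the least. CMPK2, its neighbour in the genome, had differences of 0.09, -0.05 and 0.24 and did not pass, with 1 of its 2 probes above background on no channel. The other probe of CMPK2, well above background on 12 channels, gave 0.12, -0.005 and 0.36. TRIM22, a ubiquitin ligase that restricts viruses, was well above background on no channel, and its differences of 0.04, 0.30 and 0.27 are those of a signal near background.

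**Figure D3:**
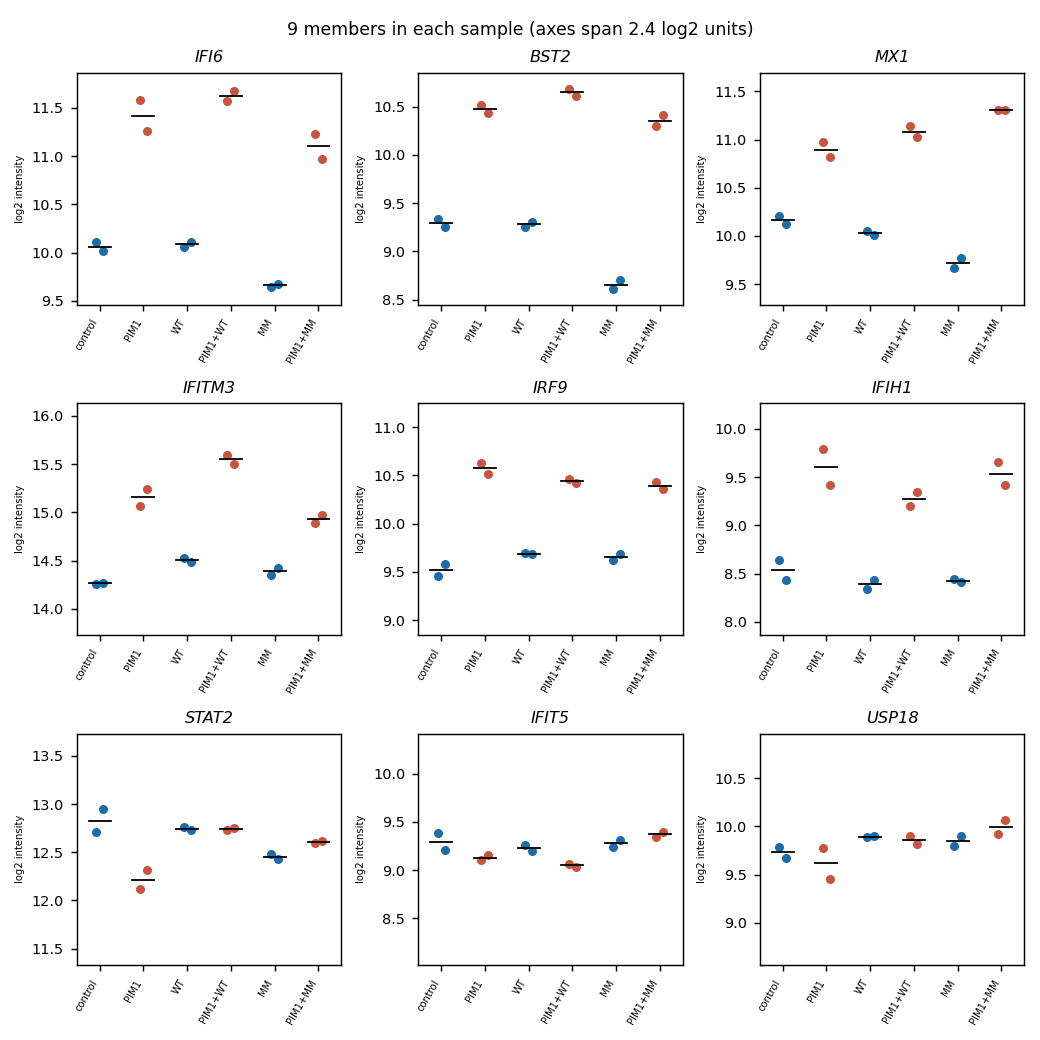
Log2 intensity of 9 members in each of the 12 samples (points), with the group mean as a line, blue for groups without and red for groups with stable PIM1; every axis spans 2.4 log2 units. IFI6, BST2, MX1, IFITM3, IRF9 and IFIH1 separate the 2 colours, STAT2 is lower in PIM1 than in control cells, and the points of IFIT5 and USP18 overlap.

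The members that carry the interferon signal to the promoter did not move as 1 block. IRF9, the DNA-binding subunit of ISGF3, read 9.46 and 9.59 for control, 10.63 and 10.51 for PIM1, 9.69 and 9.68 for WT, 10.46 and 10.42 for PIM1+WT, 9.63 and 9.68 for MM and 10.43 and 10.35 for PIM1+MM cells. It differed by 1.05, 0.75 and 0.74 (standard error 0.0678, adjusted p = 1.29e-05, 6.49e-05 and 0.000135). STAT2, its partner, read 12.71 and 12.94 for control, 12.12 and 12.32 for PIM1, 12.76 and 12.73 for WT, 12.74 and 12.75 for PIM1+WT, 12.48 and 12.43 for MM and 12.59 and 12.62 for PIM1+MM cells. It differed by -0.61, -0.00 and 0.15 (standard error 0.0886, adjusted p = 0.000979, 0.986 and 0.28). Both PIM1 samples were below both control samples in STAT2, and the other comparisons, each within 1 dye, did not pass. PIM1 and control cells carried different dyes, so the lower STAT2 signal cannot be assigned to stable PIM1. IRF7, which drives interferon alpha genes, read 12.28 and 12.25 for control, 12.61 and 12.65 for PIM1, 12.22 and 12.25 for WT, 12.71 and 12.68 for PIM1+WT, 12.04 and 12.07 for MM and 12.82 and 12.81 for PIM1+MM cells. It differed by 0.37, 0.46 and 0.76 (standard error 0.0515, adjusted p = 0.000825, 0.000214 and 2.45e-05), and median centring turned its first difference to -0.37. IRF1, a factor best known from the interferon gamma response, read 7.55 and 7.50 for control, 7.68 and 7.70 for PIM1, 7.62 and 7.51 for WT, 7.82 and 7.74 for PIM1+WT, 7.36 and 7.27 for MM and 7.23 and 7.38 for PIM1+MM cells. It differed by 0.16, 0.21 and -0.01 (standard error 0.0729, adjusted p = 0.153, 0.0611 and 0.94).

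Of the RNA sensors, IFIH1 (MDA5), which detects long double-stranded RNA, read 8.64 and 8.43 for control, 9.79 and 9.42 for PIM1, 8.34 and 8.44 for WT, 9.21 and 9.35 for PIM1+WT, 8.44 and 8.42 for MM and 9.65 and 9.42 for PIM1+MM cells. It differed by 1.06, 0.89 and 1.11 (standard error 0.131, adjusted p = 0.000382, 0.000953 and 0.000507). RIGI, which detects short RNA with a triphosphate end, read 9.71 and 9.54 for control, 10.24 and 10.24 for PIM1, 9.48 and 9.42 for WT, 10.07 and 10.09 for PIM1+WT, 9.37 and 9.34 for MM and 10.28 and 10.40 for PIM1+MM cells. It differed by 0.61, 0.63 and 0.99 (standard error 0.0711, adjusted p = 0.000275, 0.000221 and 3.37e-05). These 2 sensors passed in every comparison. DHX58 (LGP2), the relative that tunes both, read 6.58 and 6.58 for control, 6.62 and 6.28 for PIM1, 6.59 and 6.57 for WT, 6.61 and 6.64 for PIM1+WT, 6.46 and 6.61 for MM and 6.68 and 6.61 for PIM1+MM cells. It differed by -0.13, 0.04 and 0.12 (standard error 0.1, adjusted p = 0.417, 0.847 and 0.49), and it was well above background on 7 of 12 channels. TRIM25, the ubiquitin ligase that activates RIG-I, had differences of 0.13, 0.12 and 0.30 and did not pass.

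ISG15 is a ubiquitin-like protein that is joined to other proteins by UBE2L6 and HERC5 and taken off again by USP18. ISG15 read 15.59 and 15.56 for control, 16.36 and 16.44 for PIM1, 15.68 and 15.66 for WT, 16.51 and 16.58 for PIM1+WT, 15.65 and 15.60 for MM and 16.33 and 15.72 for PIM1+MM cells. It differed by 0.82, 0.88 and 0.40 (standard error 0.154, adjusted p = 0.0038, 0.00252 and 0.108). Its spot also lay in the first rows. With them left out of PIM1+MM replicate 2, the last difference was 0.70 and rests on PIM1+MM replicate 1 alone. UBE2L6 read 9.59 and 9.56 for control, 9.99 and 9.82 for PIM1, 9.47 and 9.49 for WT, 10.22 and 10.21 for PIM1+WT, 9.40 and 9.32 for MM and 9.60 and 9.63 for PIM1+MM cells. It differed by 0.33, 0.74 and 0.26 (standard error 0.0667, adjusted p = 0.00592, 6.4e-05 and 0.0238). HERC5 read 9.07 and 8.97 for control, 9.58 and 9.46 for PIM1, 9.06 and 9.02 for WT, 9.60 and 9.65 for PIM1+WT, 8.94 and 8.85 for MM and 9.66 and 9.80 for PIM1+MM cells. It differed by 0.50, 0.59 and 0.83 (standard error 0.0746, adjusted p = 0.00116, 0.00042 and 0.000121). After median centring, the first difference of UBE2L6 was -0.21. The remover USP18, which also damps signalling at the interferon receptor, had differences of -0.11, -0.03 and 0.15 and HERC6, a relative of HERC5, of 0.12, 0.16 and 0.11, and neither passed.

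PARP9 and DTX3L act as a pair in ADP-ribosylation and ubiquitination, and PARP14 is a mono-ADP-ribosyltransferase encoded close by. PARP9 read 8.84 and 9.03 for control, 9.64 and 9.85 for PIM1, 9.16 and 9.03 for WT, 9.71 and 9.72 for PIM1+WT, 9.24 and 9.28 for MM and 9.80 and 9.79 for PIM1+MM cells. It differed by 0.81, 0.62 and 0.53 (standard error 0.0881, adjusted p = 0.000195, 0.000806 and 0.00305). DTX3L had differences of 0.33, 0.41 and 0.28 and passed in the second comparison only, and PARP14 had -0.05, 0.06 and 0.32 and passed in the last only. IFI35, a leucine zipper protein, had -0.10, 0.55 and 0.39 and passed in the second and the last. EPSTI1 and XAF1 were, like TRIM22, well above background on no channel. Their differences were 0.05, -0.02 and -0.02 for EPSTI1 and 0.11, 0.20 and -0.01 for XAF1, which says nothing of genes so near the background.

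Of the 25 carriers, 22 still passed in every comparison when any 1 sample was left out. SAMD9 no longer passed in PIM1+WT minus WT without WT replicate 1, PIM1+WT replicate 1 or PIM1+WT replicate 2 (adjusted p = 0.089, 0.058 and 0.0562), and in PIM1+MM minus MM without MM replicate 1, MM replicate 2 or PIM1+MM replicate 2 (adjusted p = 0.0819, 0.119 and 0.127). SP110 no longer passed in PIM1+WT minus WT without WT replicate 1, WT replicate 2 or PIM1+WT replicate 2 (adjusted p = 0.062, 0.077 and 0.0908). UBE2L6 no longer passed in PIM1+MM minus MM without any 1 of the 4 samples (adjusted p between 0.0537 and 0.143). With that array of replicate 1 of control and PIM1 dropped, 23 members passed with a higher level in PIM1 minus control, and IFIT2, UBE2L6 and SP110 no longer passed there (adjusted p = 0.0779, 0.0512 and 0.0872).

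The size of the stable PIM1 difference was then compared between the NFATC1 forms, whose groups also differed in dye and in NFATC1 signal. The interaction, which is the PIM1+WT minus WT difference less the PIM1+MM minus MM difference, passed for 5 of 43 members, against 2.18% of all genes. LGALS3BP (0.66), IFITM3 (0.50) and UBE2L6 (0.48) had a larger difference under wild-type NFATC1, and RSAD2 (-0.65) and MX1 (-0.54) under the multi-mutant form. None of them differed in direction between the forms. Fewer members passed with any 1 sample of these groups left out. The group concerned then held 1 sample, so such fits cannot tell whether a single sample drove the result. After median centring 0 passed, and 0 had an unadjusted p below 0.05. With the array, which 2 groups share, as a random block 12 members passed, and as a fixed block 6.

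**Figure D4:**
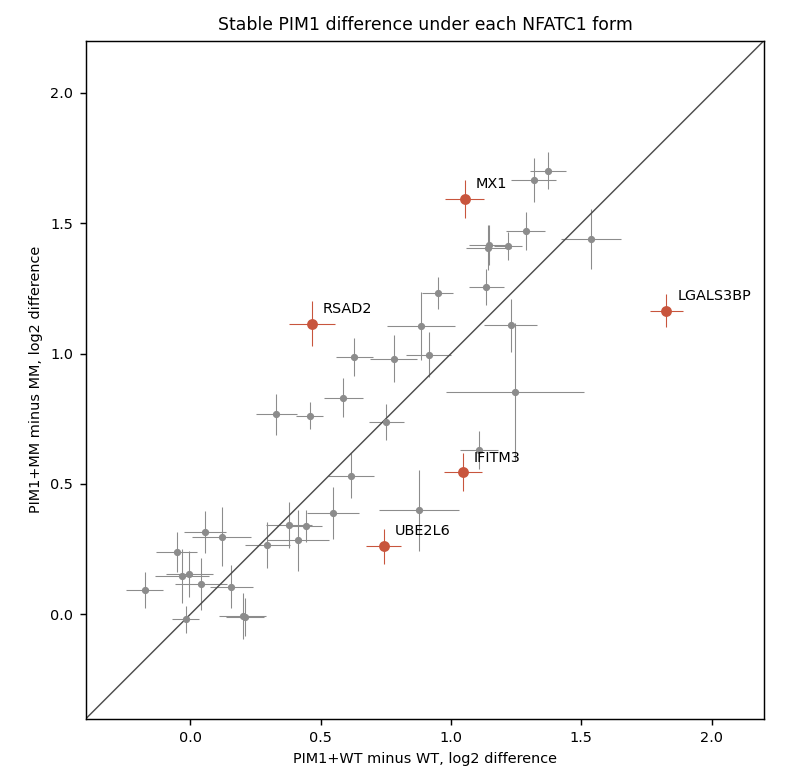
Each point is a member, with its log2 difference and standard error in PIM1+WT minus WT on the x axis and in PIM1+MM minus MM on the y axis; the line marks equal differences. The 5 named members (red) passed the interaction test, LGALS3BP, IFITM3 and UBE2L6 below the line and MX1 and RSAD2 above it.

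Cells with transient NFATC1 were set against cells without it within a dye. The labels name no mock transfection for control and PIM1 cells, so NFATC1 and transient transfection itself cannot be told apart here. When wild-type NFATC1 was added to control cells (WT minus control, both Cy3), 0 of 43 members passed in limma, against 0.233% of all genes, while 8 had an unadjusted p below 0.05 and the median difference was -0.01. When multi-mutant NFATC1 was added to PIM1 cells (PIM1+MM minus PIM1, both Cy5), 8 members passed with a higher level, against 5.2% of all genes, and 6 with a lower level, against 7.16%. MX1 was highest among them (0.41, adjusted p = 0.00918) and OASL lowest (-0.52, adjusted p = 0.00189). Without PIM1+MM replicate 2 that count of 14 was 6.

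WT against MM cells and PIM1+WT against PIM1+MM cells set Cy3 against Cy5, so the NFATC1 form, the dye and the NFATC1 signal cannot be told apart. In WT minus MM, 5 members passed and all were higher in WT cells, against 0.559% of all genes. They were OASL (0.68), BST2 (0.62), IFI44L (0.56), RSAD2 (0.50) and OAS3 (0.36), and at most 1 of 43 passed without any 1 of the 4 samples. In PIM1+WT minus PIM1+MM, 11 members were higher (8.54% of all genes) and 3 lower (7.5%), led by LGALS3BP (0.96, adjusted p = 4.4e-05), IFITM2 (0.66), IFITM3 (0.62) and UBE2L6 (0.60). IFIT5 (-0.32), CMPK2 (-0.27) and RIGI (-0.26) were lower in PIM1+WT cells. The count of 14 was 8 without PIM1+WT replicate 1 and 7 without PIM1+WT replicate 2. None of these differences reached 1 on the log2 scale in any of the 4 comparisons of NFATC1. After median centring 0 members passed between WT and MM, between PIM1+WT and PIM1+MM and between PIM1+MM and PIM1, with 19, 12 and 1 at an unadjusted p below 0.05. The samples of the first 2 of these comparisons share arrays. With the array as a random block 13 members passed between WT and MM and 20 between PIM1+WT and PIM1+MM, and with a fixed block 7 and 19.

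Further genes of the pathway, written down by role in 6 lists of 117 genes with earlier results of these data known, were read beside the members. Of these, 103 were tested. Of 49 other interferon-stimulated genes, 20 passed with a higher level in each of the 3 comparisons and 5, 4 and 1 with a lower level, and 12 passed with a higher level in all 3. Over all genes, 12.6%, 13.3% and 10% passed with a higher and 12.4%, 14% and 9.38% with a lower level, and 4.42% with a higher level in all 3. RTP4, a chaperone of receptors, had differences of 0.68, 0.98 and 1.43. LAMP3, a lysosomal membrane protein, had 0.81, 0.95 and 1.11, and DDX60, a helicase that aids RNA sensing, 1.01, 0.87 and 0.78. APOL1, a trypanolytic apolipoprotein, passed with a higher level in the last 2 comparisons and not in the first, where the dyes differ (-0.08, 1.25 and 1.17, adjusted p = 0.506, 8.39e-06 and 1.92e-05). Within Cy3, APOL1 read 11.26 and 11.13 for control and 10.52 and 10.55 for WT cells, so the baselines differed as well. LY6E, a membrane-anchored protein that blocks coronavirus entry, moved the other way, with -1.21, -0.91 and -1.52 (adjusted p = 1.93e-06, 8.17e-06 and 7.31e-07).

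The genes upstream of the response were read by their counts. Among the interferon genes 11 of 21 were tested, and 7 of these 11 were near background. In the 3 comparisons 2, 0 and 1 of them passed with a higher level. IFNE, which encodes interferon epsilon and was well above background on all 12 channels, passed in PIM1 minus control with 0.51 (adjusted p = 0.012), and IFNL1, well above background on 6 channels, passed in PIM1+MM minus MM with 0.27 (adjusted p = 0.0374). IFNB1, which encodes interferon beta, was well above background on no channel, and passed in PIM1 against control cells by 0.29 (adjusted p = 0.0259) from a signal near background. None of the 6 receptor genes passed in any of the 3 comparisons, with IFNAR1 at -0.09, -0.15 and 0.12 and IFNAR2 at -0.12, -0.28 and 0.01. In the mean over the 3 comparisons IFNGR2 (0.35, adjusted p = 0.0124) and IL10RB (0.25, adjusted p = 0.0348) passed with a higher level. IFNE, IFNL1, IFNGR2 and IL10RB were named after their values were seen. JAK1 had differences of 0.02, -0.05 and -0.17 and did not pass. TYK2 passed in PIM1+WT against WT cells (0.14, 0.69 and -0.17, adjusted p = 0.35, 0.000692 and 0.275). Among 15 tested genes of nucleic acid sensing, 4, 4 and 2 were higher and 3, 4 and 0 lower, and among 11 inhibitors of the signal 1, 2 and 1 were higher and 1, 3 and 1 lower, against the shares of all genes given above.

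**Figure D5:**
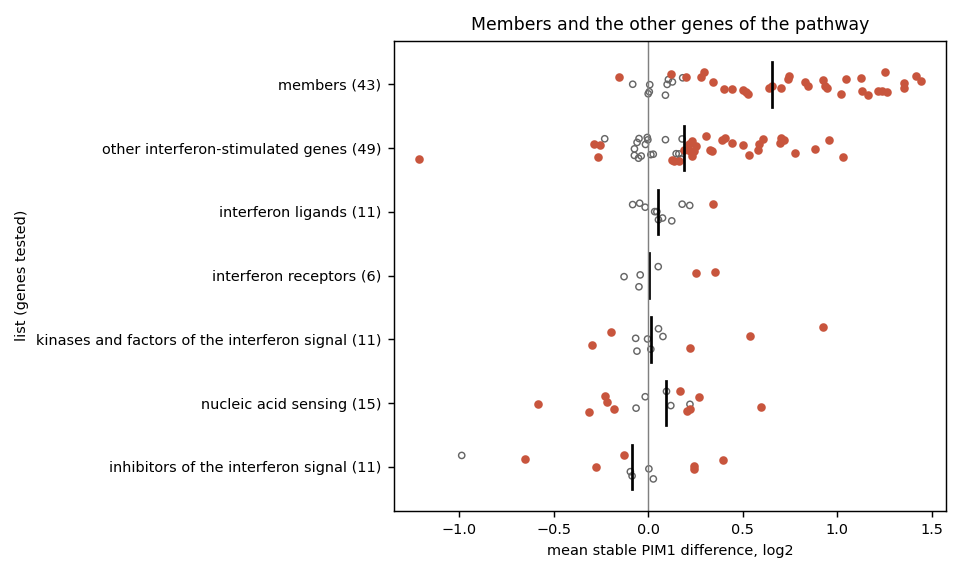
Mean stable PIM1 difference (log2, over the 3 pairs of groups) of the members and of each pathway list, with 1 point per gene, filled where it passed, and a line at the median. The members have a median of 0.65 and the other interferon-stimulated genes of 0.19, with LY6E at the far left, while the medians of the other lists lie within 0.10 of 0.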

How the data were processed

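The authors hybridized RNA of 12 PC-3 samples to 6 two-colour Agilent arrays and read them with Feature Extraction 11.0.1.1. The deposited scanner files hold median spot intensity per dye, and the deposited log2 table held quantile-normalized log2 median intensities per spot (largest difference from a recomputation 0.0844). Here outlier spots were left out, spots of a probe averaged, and probes kept that exceeded the 90th percentile of 153 negative control spots in at least 2 of 12 channels (31486 of 34127). Channels were quantile normalized on the log2 scale without background subtraction, and probes summarised as the median per RefSeq gene symbol (26377 probes had one; the other 7750 kept their own names). A mean for each group was fitted over all 12 samples with limma 3.58.1 (R 4.3.3), with Benjamini-Hochberg adjustment over 25748 genes. No spot was saturated, and between 56.9% and 69.0% of spots were well above background; 2 samples a group limit the precision. Near background means that this flag was absent on both arrays of at least 4 of 6 groups.

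Members and gene lists were chosen with earlier results of these data known. Full values were given to members higher in all 3 comparisons, lower in any, or in the signal path, and to IFIT1, ISG15 and RSAD2, which were added after their values were seen. Further pathway genes were named where they passed with a log2 difference of at least 1 in any comparison, or are JAK1, TYK2, IFNAR1, IFNAR2 or IFNB1; 1 gene that this rule names is not reported here. Alternatives were normexp correction (offset 50), loess, median centring, the processed signal, the deposited table, other filters, kept outliers, another probe summary, left-out rows, samples or an array, slide and array blocks, and fits on the compared groups alone. The fit was tested on simulated data.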

Additional observations from a re-analysis of the deposited data

Results flagged for a closer look

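In 5 members the stable PIM1 difference itself differed between the NFATC1 forms, by the interaction test in limma over all genes. The difference was larger under wild-type NFATC1 in LGALS3BP, by 0.66 on the log2 scale (adjusted p = 0.0112), in IFITM3 by 0.50 (adjusted p = 0.0451) and in UBE2L6 by 0.48 (adjusted p = 0.0381). It was larger under the multi-mutant form in RSAD2, with an interaction of -0.65 (adjusted p = 0.0343), and in MX1, with -0.54 (adjusted p = 0.0363). Each of the 2 differences compared lies within 1 dye, so a fixed dye difference of a gene drops out of the comparison between them. A response that depends on the dye, the NFATC1 form and the NFATC1 signal cannot be told apart there. That signal differed by -1.82 on the log2 scale between WT and MM cells, and by -2.07 between PIM1+WT and PIM1+MM cells.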

How the results depend on the processing

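Of 1261 values of single members under alternatives that kept all samples, 1162 kept their direction and side of the threshold, 83 no longer passed, 5 newly passed and 11 reversed; with a sample left out, 376, 25, 1 and 5 of 407 did. A lone sample left in a group was assumed to vary like the other groups. Median centring gave 7, 6 and 5 members higher in the 3 stable PIM1 comparisons in place of 26, 32 and 29, and 0 for the interaction and for each NFATC1 comparison. It reversed IFIT2 (-0.12), UBE2L6 (-0.21), IRF7 (-0.37), SP110 (-0.0050) and DHX58 (0.41) in PIM1 minus control. DHX58 there was 0.048 with the processed signal, 0.034 without PIM1 replicate 2 and -0.30 without PIM1 replicate 1 (adjusted p = 0.025). STAT2 in PIM1+WT minus WT was 0.071 with loess, 0.025 with the processed signal, 0.0074 with the deposited table, 0.012 without WT replicate 1 and 0.0031 without PIM1+WT replicate 1 (-0.019 to 0.012 with any 1 sample left out). IRF1 in PIM1+MM minus MM was 0.013 with loess, 0.00069 with the deposited table, 0.033 without MM replicate 1 and 0.065 without PIM1+MM replicate 1 (-0.088 to 0.065 with any 1 sample left out). WT minus MM gave 3 members with normexp correction. With probes above the negative controls in all 12 channels, the interaction gave 10 and WT minus MM 8. With the array as a random block, they gave 12 and 13. With the compared groups alone, WT minus MM and PIM1+MM minus PIM1 gave 0 in limma, with 16 and 14 members at an unadjusted p below 0.05. The cause of these changes was not tested. With 1 sample left out, counts were 25 to 27, 28 to 30 and 25 to 29 in the stable PIM1 comparisons, 0 to 3 for the interaction, 0 to 1 for WT minus MM, 7 to 15 for PIM1+WT minus PIM1+MM and 6 to 14 for PIM1+MM minus PIM1.

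The replicate number names the slide. Samples of the same number deviated together with a correlation over 0.1 in 7 of 15 pairs of groups (0.0513 to 0.833), so the numbers were not taken to pair the samples. The highest correlations were those of the groups that share arrays, 0.833 for control and PIM1, 0.497 for WT and MM and 0.345 for PIM1+WT and PIM1+MM. With the array as a random block PIM1+WT minus PIM1+MM gave 20 members in place of 14. In PIM1 minus control, 28 members passed with a higher level with the array as a random block, and 28 with it as a fixed block. With the replicate block, 26, 32 and 30 members passed with a higher level in the stable PIM1 comparisons, and 6 passed for the interaction, 5 for WT minus MM, 16 for PIM1+WT minus PIM1+MM, 0 for WT minus control and 14 for PIM1+MM minus PIM1.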

Other observations

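Several members lie next to each other on their chromosome, with no other protein-coding gene between them in the RefSeq table. Neighbours in the IFITM cluster on chromosome 11, IFI44L and IFI44 on chromosome 1, and MX2 and MX1 on chromosome 21 all passed with a higher level in the 3 stable PIM1 comparisons. Other neighbours had unlike mean stable PIM1 differences. IFIT5 had -0.08 beside IFIT1 with 0.93 on chromosome 10, HERC6 had 0.13 beside HERC5 with 0.64 on chromosome 4, CMPK2 had 0.09 beside RSAD2 with 0.52 on chromosome 2, and OAS3 had 0.30 between OAS1 with 1.24 and OAS2 with 1.05 on chromosome 12. These differences between neighbours were not tested.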
